A study of Rattus norvegicus with 12 samples.

Results

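A group of 10 genes that move, store and recycle iron and heme were followed through the week after a brain slice lesion: Tf, Tfrc, Slc11a2, Slc40a1, Cp, Fth1, Ftl1, Aco1, Ireb2 and Hmox1. They were selected by gene symbol from the table of array spots, with the ratios of the same 3 days already known, so their values are given as a description and support no claim of their own. They are 10 of the 14871 genes measured and cover 25 of the 44290 spots. The cultures were organotypic slices of entorhinal cortex and hippocampus kept together, in which the axons running from one to the other, the entorhino-hippocampal pathway, were cut with a knife after 15 days in vitro. Axotomized cultures were collected 1, 3 or 7 days later, and the controls were non-axotomized cultures kept for the same time. Both kinds grew in medium with 25% horse serum, so both were exposed to the iron proteins of that serum. Each day had 2 biological replicates, each hybridized to 2 two-colour arrays with the dyes exchanged, 12 arrays in all. The labels give the species as Rattus norvegicus while their treatment protocol speaks of wild type mice, and they do not say how many cultures or animals stand behind a replicate. P-values therefore measure only the spread between these samples, which may be technical. Because the table holds ratios and no levels, the tissue could not be checked against its markers.

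Cells take up iron bound to transferrin through the transferrin receptor, move it into the cytosol, store it in ferritin and release it through ferroportin. In the brain, transferrin is made mainly by oligodendrocytes and the choroid plexus, and ferritin is abundant in microglia and oligodendrocytes. Heme is opened by heme oxygenase, which frees its iron, and the iron regulatory proteins tune ferritin and transferrin receptor mRNA to the iron a cell holds.

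Each value is a ratio on the log2 scale, axotomized RNA divided by non-axotomized RNA; this direction was read from the titles and the channel order of the arrays, is likely, and is not stated. If the table runs the other way, every sign turns. A replicate's value is the mean of its dye-swapped arrays and, for a gene with several spots, of those spots. Errors are SDs over the 2 replicates of a day (n = 2). Where replicates of 2 days do not overlap, or all arrays share a sign, the share of all genes that do so was not counted. Since a ratio in whole slices is measured, fewer cells of a type and less RNA per cell cannot be told apart.

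The lowest ratios of the set were those of Hmox1, on days 1 and 3, and of Tf, on days 1 and 7. The ferritin genes lay above 0 or near it at day 1 and below 0 at day 3, Cp ran the opposite way, and Slc40a1, Slc11a2, Aco1 and Ireb2 had day means between -0.09 and 0.10. In limma's test over all genes (two-sided, Benjamini-Hochberg, adjusted p under 0.05), 0 of the 10 genes passed on any day, in any difference between days or in the F test over the days. The same test called 0.592% of all genes at day 1, 1.03% at day 3 and 0% at day 7. For the differences it called 0% from day 1 to day 3, 0.121% from day 1 to day 7 and 0.356% from day 3 to day 7, and the F test called 0.525%. At an unadjusted p under 0.05, the members numbered 5 at day 1, 5 at day 3 and 1 at day 7, against 13.2%, 14.4% and 9.37% of all genes. Of the members, 4 lay above 0 and 6 below on each day, with medians of -0.04, -0.04 and -0.01 beside medians of 0.01, 0.01 and 0.00 over all genes.

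**Figure D1:**
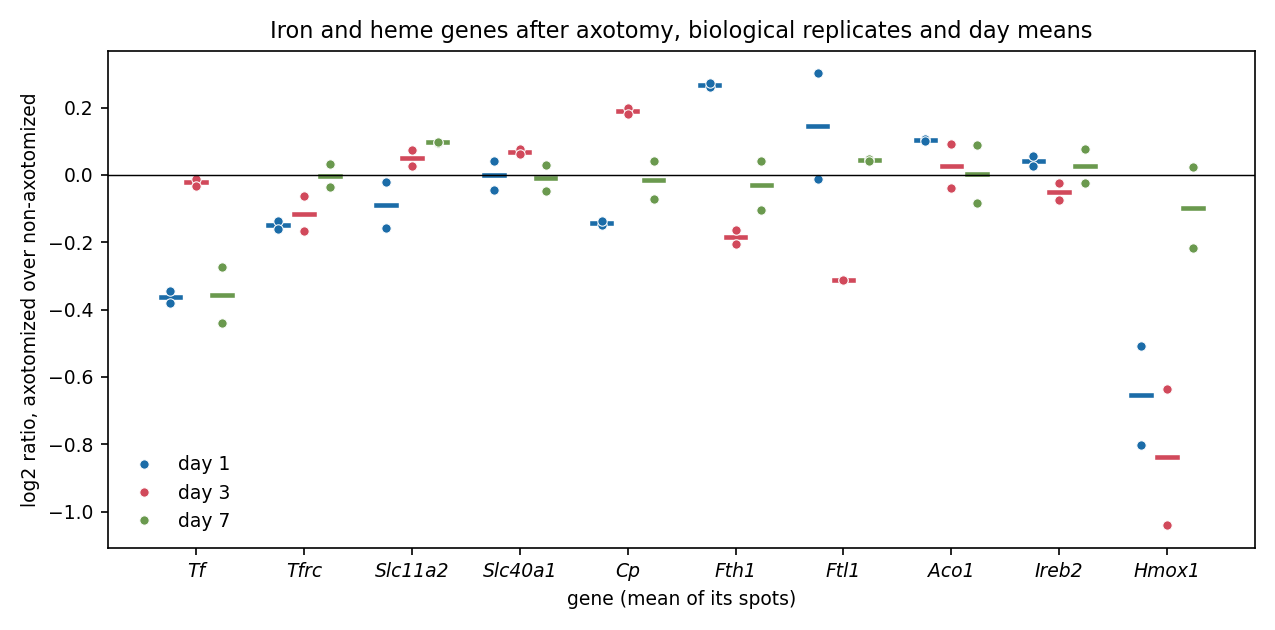
Log2 ratio of axotomized over non-axotomized RNA (y axis) for the 10 genes (x axis) at days 1, 3 and 7. Points are the 2 biological replicates of a day, each the mean of its dye-swapped arrays, and bars are their mean. Hmox1 reaches -1.04 at day 3, and Tf lies near -0.36 at days 1 and 7 and near 0 at day 3.

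Whether the 12 arrays were averaged in pairs mattered to the calls. With the arrays kept as separate values and the biological replicate as a random block, 5 members passed at day 1 (Tf, Tfrc, Cp, Fth1 and Hmox1), 3 at day 3 (Cp, Fth1 and Hmox1) and 1 at day 7 (Tf). In that fit 4.84%, 7.15% and 1.94% of all genes passed on the 3 days. The estimated correlation between the arrays of a replicate was -0.17, below 0, so the fit counts the dye-swapped arrays as more informative than independent ones.

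Transferrin, encoded by Tf, is the iron carrier of plasma and brain fluid. Tf has 1 spot on the array. At day 1 its ratios were -0.35 and -0.38, with a mean of -0.36 ± 0.024 (SD, n = 2). At day 3 they were -0.01 and -0.03, and at day 7 they were -0.27 and -0.44, with a mean of -0.36 ± 0.12. Both replicates of days 1 and 7 lay below both replicates of day 3, and all 4 arrays of day 1 and all 4 of day 7 were below 0. A mean of -0.36 is a level 1.29-fold lower in axotomized cultures at day 1 and 1.28-fold lower at day 7. The adjusted p from limma was 0.0518 at day 1 and 0.238 at day 7. From day 1 to day 3 the difference was 0.34 (SE 0.067, adjusted p = 0.223 in limma).

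The day 3 value of Tf near 0 was a mean over arrays of opposite sign. With axotomized RNA in Cy5 the 2 replicates gave 0.17 and 0.10, and with it in Cy3 they gave -0.20 and -0.17. At day 1 both orientations were negative, with means of -0.25 in Cy5 and -0.48 in Cy3, and at day 7 they were -0.19 and -0.52. On each of the 3 days the arrays with axotomized RNA in Cy3 gave the lower Tf ratio. The part of the Tf ratio that turned with the dyes was 0.11, 0.16 and 0.16 on the 3 days.

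The promoter windows of Tf, of its receptor gene Tfrc and of Cp are shown because each holds 1 of the motifs searched. Tf and Tfrc are also carrier and receptor, and Cp changed its sign between days. The motif in Tf and Cp was added after the windows had been read, so their choice was not made beforehand. The windows are the 250 bases before the annotated start, from RefSeq on the rat assembly GRCr8, printed along the gene's own strand. Tf lies on chromosome 8, minus strand (chr8:112695377-112695626), Tfrc on chromosome 11, minus strand (chr11:81690319-81690568), and Cp on chromosome 2, plus strand (chr2:104368420-104368669). Capitals mark TATAAA in Tf and Cp and ACGTG, the core of the hypoxia response element, in Tfrc.
Tf: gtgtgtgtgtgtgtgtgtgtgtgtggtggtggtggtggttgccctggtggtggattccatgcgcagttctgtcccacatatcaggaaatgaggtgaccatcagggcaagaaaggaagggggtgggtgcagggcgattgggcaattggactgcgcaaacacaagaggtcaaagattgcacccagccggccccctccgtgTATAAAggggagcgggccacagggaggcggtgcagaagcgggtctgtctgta
Tfrc: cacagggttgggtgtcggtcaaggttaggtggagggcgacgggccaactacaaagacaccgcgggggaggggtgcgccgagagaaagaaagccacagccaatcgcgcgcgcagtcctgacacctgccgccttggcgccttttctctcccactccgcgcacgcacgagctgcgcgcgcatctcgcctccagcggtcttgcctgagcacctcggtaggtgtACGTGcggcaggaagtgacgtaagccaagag
Cp: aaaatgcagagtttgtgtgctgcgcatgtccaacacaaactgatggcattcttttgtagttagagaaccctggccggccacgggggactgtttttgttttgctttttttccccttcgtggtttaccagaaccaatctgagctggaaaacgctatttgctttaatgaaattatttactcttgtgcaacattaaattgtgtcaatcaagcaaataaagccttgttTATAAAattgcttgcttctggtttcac
TATAAA begins 52 bases before the start in Tf and 27 in Cp, and ACGTG begins 31 bases before the start in Tfrc.

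Of the 10 members, 7 have a promoter entry, with 8 windows of 300 bases in all (250 before and 50 after the start). Fth1, Ftl1 and Hmox1 have no entry and were not searched, so the counts below do not cover them. Searched on both strands, ACGTG was in 1 of the 8 windows, that of Tfrc, and in 19.3% of 33469 rat windows. The antioxidant response element core TGACNNNGC, also searched on both strands, was in 0 of 8 and in 12.1% of all windows. On the gene strand, CAGTGN, the loop of the iron-responsive element, was in 0 of 8 and in 34.9%. That element acts in mRNA, and only 50 of the 300 bases lie after the start. This count therefore cannot tell whether the mRNA of a member carries the element. TATAAA, a motif added after the windows had been read, was in 2 of 8 on the gene strand and in 8.8% of all windows. None of the 4 motifs overlaps another in the printed windows. A match describes the letters of a window and is not a binding site.

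The transferrin receptor gene Tfrc was slightly below 0 on days 1 and 3. Its replicates were -0.14 and -0.16 at day 1, -0.17 and -0.06 at day 3, and -0.04 and 0.03 at day 7. The means were -0.15 ± 0.017, -0.12 ± 0.072 and -0.00 ± 0.048. All 4 arrays were below 0 at day 1. These means hide a division among the 5 Tfrc spots. Spots 563 and 37710 had -0.32 and -0.37 at day 1, whereas spots 255, 25560 and 41035 had -0.02, 0.00 and -0.04. At day 3 the first pair had -0.33 and -0.17 and the other spots -0.08, 0.02 and -0.02. The spots therefore disagree on whether Tfrc differed at all, and the table gives no intensity by which a dim spot could be told from a bright one.

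Slc11a2 encodes the divalent metal transporter that carries iron out of the endosome. Its replicates were -0.16 and -0.02 at day 1, 0.03 and 0.07 at day 3, and 0.09 and 0.10 at day 7. The day 7 mean was 0.10 ± 0.0026, with a 95% interval of -0.01 to 0.20 that includes 0. That small SD hides a dye split, with means of 0.18 in Cy5 and 0.01 in Cy3. At day 1 the orientations gave Slc11a2 means of 0.03 in Cy5 and -0.21 in Cy3. Of its 2 spots, 1 had 0.17 and the other 0.03 at day 7. The spots disagreed on the sign at day 3, with -0.04 and 0.15.

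Ferroportin, encoded by Slc40a1, is the known exporter of iron from cells, and ceruloplasmin, encoded by Cp, oxidizes the iron that leaves. The Slc40a1 ratios, from 1 spot, were 0.04 and -0.04 at day 1, 0.08 and 0.06 at day 3, and 0.03 and -0.05 at day 7. The day 3 mean was 0.07 ± 0.0090 with a 95% interval of -0.03 to 0.17. That interval belongs to Slc40a1 at day 3 and carries no error of Tf, so it cannot tell whether these genes differed. A difference between Tf and Slc40a1 was not tested on any day.

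Cp turned from below 0 to above 0 between days 1 and 3. Its replicates were -0.15 and -0.14 at day 1, 0.20 and 0.18 at day 3, and 0.04 and -0.07 at day 7. The replicates of the 3 days did not overlap between days 1 and 3, and the day 3 ratios were above both others. All 4 arrays were below 0 at day 1 and all 4 above 0 at day 3, so both dye orientations gave the same sign, -0.20 and -0.09 at day 1 and 0.18 and 0.20 at day 3. The difference between the days was 0.33 (SE 0.055, adjusted p = 0.169 in limma). Among its 4 spots, 29169, 33891 and 35165 had -0.25, -0.21 and -0.14 at day 1 and 0.21, 0.21 and 0.25 at day 3. Spot 761 stood apart, with 0.03 at day 1 and 0.09 at day 3.

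**Figure D2:**
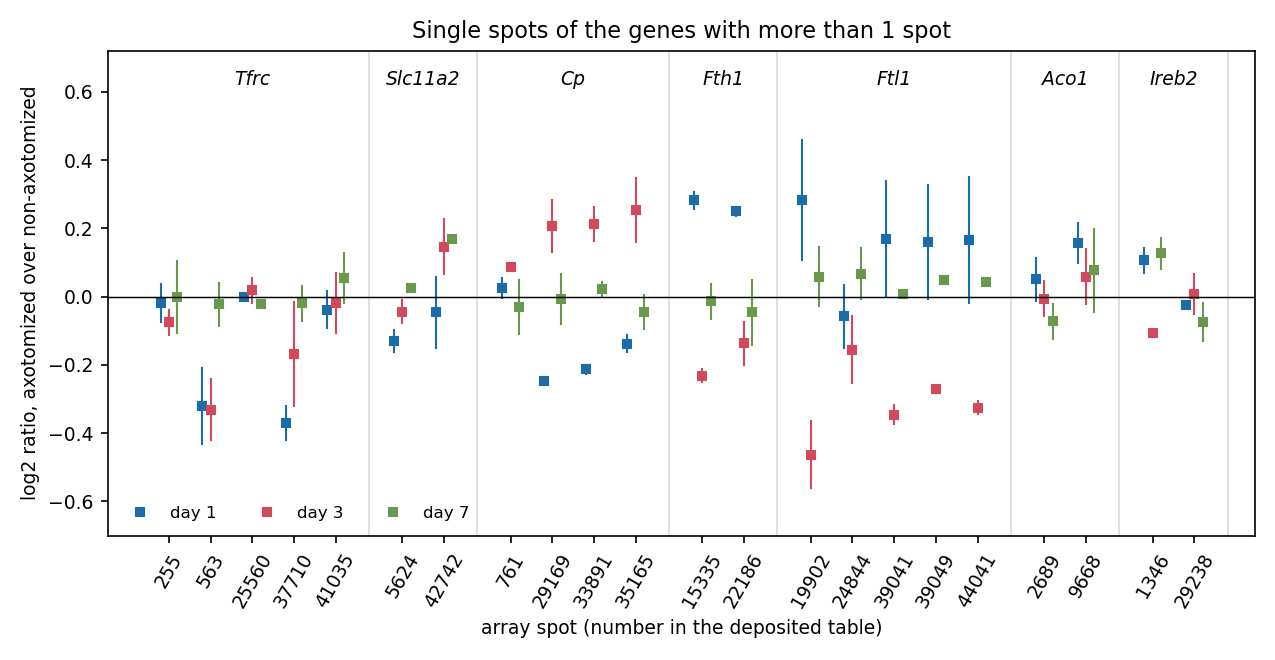
Log2 ratio of axotomized over non-axotomized RNA (y axis) for every spot (x axis, spot number) of the 7 genes with more than 1 spot. Squares are means of 2 biological replicates and lines join the replicates. The 5 Tfrc spots split into 2 below -0.3 and 3 near 0 at day 1, and the 5 Ftl1 spots all lie below 0 at day 3.

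The subunits of ferritin, the iron store, are the heavy chain from Fth1, which oxidizes iron, and the light chain from Ftl1, which helps it mineralize. Both had higher ratios at day 1 than at day 3. Fth1 had 0.26 and 0.27 at day 1, -0.21 and -0.16 at day 3, and 0.04 and -0.10 at day 7. Its means were 0.27 ± 0.0089, -0.18 ± 0.031 and -0.03 ± 0.10. The small SD at day 1 hides a spread between arrays. Replicate 2 gave 0.06 with axotomized RNA in Cy5 and 0.48 in Cy3, and replicate 1 gave 0.28 and 0.24. Replicates of days 1 and 3 did not overlap, all 4 arrays were above 0 at day 1 and all 4 below 0 at day 3. The 2 spots had 0.28 and 0.25 at day 1 and -0.23 and -0.14 at day 3. From day 1 to day 3 the difference was -0.45 (SE 0.062, adjusted p = 0.141 in limma).

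Ftl1 had -0.01 and 0.30 at day 1, -0.31 and -0.31 at day 3, and 0.05 and 0.04 at day 7. The day 1 mean of 0.14 ± 0.22 rested on replicate 2, and without it the value was -0.01. It also rested on 1 dye orientation, since the arrays gave -0.13 when Cy5 marked the axotomized RNA and 0.42 when Cy3 did. At day 3 the sign was shared, with -0.50 in Cy5 and -0.12 in Cy3, and all 4 arrays and all 5 spots, which ran from -0.46 to -0.16, were below 0. Of the 5 spots, 4 were above 0 at day 1. The ferritin probes may also bind transcripts of near-identical copies. RefSeq lists 21 further rat entries named as Ftl1 pseudogenes or Ftl1-like and 6 for Fth1, so the ratios of both genes are uncertain in what they sum.

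Heme oxygenase 1, encoded by Hmox1, is the inducible enzyme that breaks down heme to biliverdin, carbon monoxide and iron. It had the lowest ratio of the members on days 1 and 3. Its single spot gave -0.80 and -0.51 at day 1, -1.04 and -0.64 at day 3, and 0.02 and -0.22 at day 7. The means were -0.65 ± 0.21, -0.84 ± 0.29 and -0.10 ± 0.17. On the linear scale the day 1 and day 3 means are 1.57-fold and 1.79-fold lower in axotomized cultures. The replicates of day 7 lay above all those of days 1 and 3, and every array of days 1 and 3 was below 0. Arrays differed in size: at day 1 the pair with axotomized RNA in Cy5 gave -0.95 and -0.96 and the pair in Cy3 gave -0.66 and -0.05. At day 3 the orientations were closer, with means of -0.89 in Cy5 and -0.78 in Cy3. The adjusted p from limma was 0.102 at day 1 and 0.0504 at day 3.

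**Figure D3:**
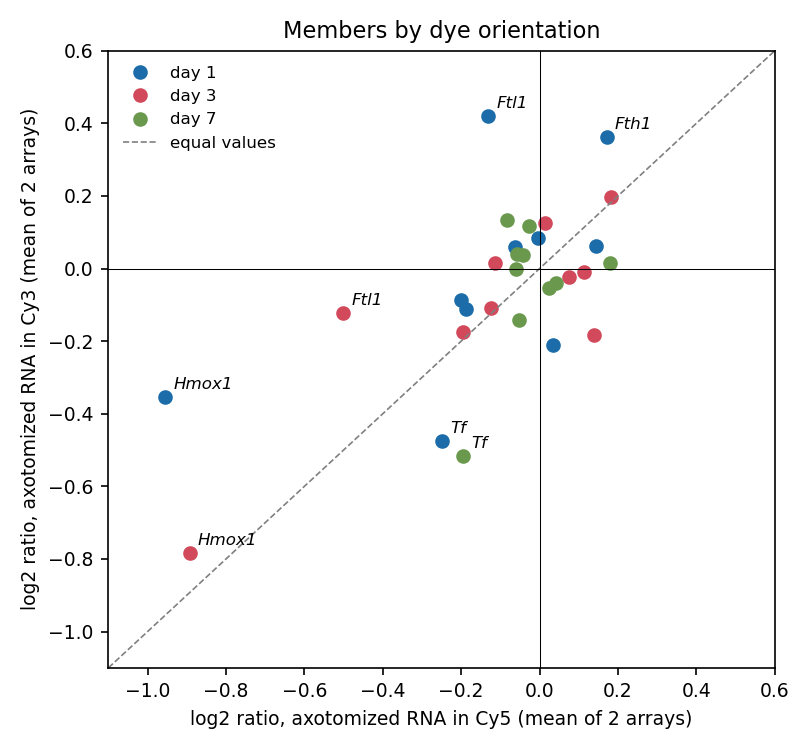
Mean log2 ratio of each member with axotomized RNA in Cy5 (x axis, mean of 2 arrays) against the mean with it in Cy3 (y axis, mean of 2 arrays) at days 1, 3 and 7. Points on the dashed line agree between orientations. Ftl1 at day 1 (-0.13 and 0.42) and Hmox1 at day 1 (-0.95 and -0.36) lie farthest from it.

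The iron regulatory proteins come from Aco1, an enzyme that turns into an RNA-binding protein when it loses its iron-sulfur cluster, and Ireb2, which is degraded when iron is plentiful. Aco1 replicates were 0.11 and 0.10 at day 1, -0.04 and 0.09 at day 3, and 0.09 and -0.08 at day 7. Ireb2 replicates were 0.06 and 0.02 at day 1, -0.03 and -0.07 at day 3, and -0.03 and 0.08 at day 7. No day mean of either gene had a 95% interval without 0. The widest upper limit was 0.24 for Aco1 at day 1. The Ireb2 spots differed, with 1346 at 0.11, -0.11 and 0.13 on the 3 days and 29238 at -0.02, 0.01 and -0.07. Both proteins act on mRNA that already exists, and the arrays measure only the mRNA of their genes.

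In the test of single spots, 0 of the 25 passed at an adjusted p under 0.05 on any day, against 0.00452% of all spots at day 1, 0.102% at day 3 and 0% at day 7. Without adjustment, 11 of the 25 had a p under 0.05 at day 1, 11 at day 3 and 3 at day 7, beside 11.5%, 12.2% and 8.72% of all spots. Spots of 1 gene measure the same transcript and are not independent. Of the 25 spots, 14 lay below 0 at day 1, 16 at day 3 and 14 at day 7.

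Among other iron, heme and oxidative stress genes, taken from 6 lists, 75 were measured and 1 passed on any day. Lcn2, which encodes lipocalin 2, a secreted protein that binds iron carried on siderophores, fell at day 1, with -0.57 and -0.79 and a mean of -0.68 ± 0.15 (adjusted p = 0.0281 in limma). Its later means were -0.18 ± 0.0053 at day 3 and -0.27 ± 0.12 at day 7. Both Lcn2 spots were below 0 at day 1, at -0.92 and -0.44. The call did not hold in every setting: it was kept in 9 of 17 alternatives. It was lost without day 1 replicate 1 (adjusted p = 0.117), without day 1 replicate 2 (adjusted p = 0.11) and without either day 3 replicate (adjusted p = 0.0788), and the adjusted p over all alternatives ran from 0.000238 to 0.248. At an unadjusted p under 0.05, 13 of the 75 passed at day 1, 17 at day 3 and 8 at day 7, beside 13.2%, 14.4% and 9.37% of all genes.

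The list of uptake, release and intracellular handling held 18 measured genes, 10 above 0 at day 1, 11 at day 3 and 6 at day 7. After Lcn2, its smallest F test p belonged to Steap1, a gene of a metalloreductase family. Steap1 had -0.17 ± 0.017, -0.15 ± 0.027 and -0.11 ± 0.042 on the 3 days. Slc22a17, a gene for a lipocalin 2 receptor that was picked after its values were seen, had -0.36 and -0.03 at day 1 and 0.26 and 0.50 at day 3. In the list of iron regulators, 9 genes, Hif1a, the hypoxia factor, had -0.25 ± 0.20, -0.24 ± 0.12 and -0.18 ± 0.043, and Epas1, its relative, 0.06 ± 0.016, 0.11 ± 0.0029 and 0.04 ± 0.048. Neither passed.

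The 8 heme synthesis genes included Urod, an enzyme of the middle of the pathway, with 0.15 ± 0.044, 0.21 ± 0.11 and -0.11 ± 0.014, and Alad, an early enzyme, with 0.04 ± 0.0065, -0.13 ± 0.085 and -0.04 ± 0.013. Of the 8, 7 lay above 0 at day 1, 5 at day 3 and 3 at day 7. Heme breakdown, transport and scavenging had 15 genes, 7 above 0 at day 1, 9 at day 3 and 8 at day 7. Blvrb, a biliverdin reductase, had 0.11 ± 0.057, 0.07 ± 0.065 and -0.07 ± 0.038, and Pgrmc1, a heme-binding membrane protein, -0.17 ± 0.13, -0.02 ± 0.0039 and -0.05 ± 0.081. Hmox2, the constitutive heme oxygenase, which was picked after its values were seen, had 0.15 and -0.54 at day 3, replicates of opposite sign, where both replicates of Hmox1 were below 0.

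Among 13 iron-sulfur cluster assembly genes, 12 lay above 0 at day 1, 6 at day 3 and 4 at day 7. Their list mean at day 1 was 0.11 and 0.09 in the 2 replicates, where 8390 of the 14871 genes were above 0 and the median of all genes was 0.01. Hscb, a co-chaperone of cluster assembly, had 0.25 ± 0.019 at day 1, and Nubp2, a scaffold of cytosolic assembly, 0.18 ± 0.14 and 0.20 ± 0.0045 at days 1 and 3. NRF2 is the factor that induces Hmox1 and the ferritin genes under oxidative stress, and 12 of its targets were measured besides the members. Of these, 5 were above 0 at day 1, 0 at day 3 and 4 at day 7, beside 8004 of 14871 genes above 0 at day 3. Their list mean was 0.02 and -0.02 at day 1, -0.13 and -0.16 at day 3 and -0.07 and -0.07 at day 7. Sqstm1, an autophagy receptor gene, had -0.24 ± 0.025 and Slc7a11, a cystine transporter gene, -0.20 ± 0.053 at day 3, and neither passed. Gpx4, which protects membrane lipids and was picked after its values were seen, had -0.42 ± 0.44 at day 3 and -0.51 ± 0.12 at day 7.

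**Figure D4:**
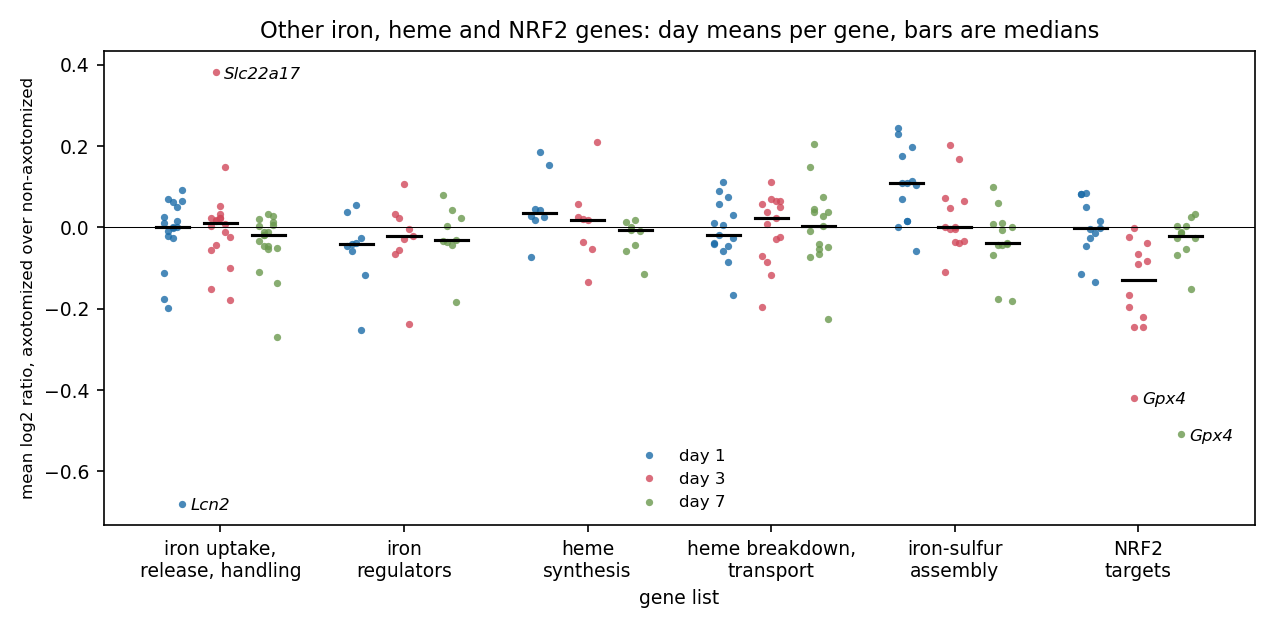
Day means of the log2 ratio of axotomized over non-axotomized RNA (y axis) for each gene of 6 lists (x axis) at days 1, 3 and 7. Points are genes, black bars are list medians, and genes beyond 0.35 in either direction are named. All 12 NRF2 targets lie below 0 at day 3, and Lcn2 is the lowest gene at day 1.

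The values of cell markers on the same arrays are given beside those of the iron genes. Of the 9 oligodendrocyte markers, 2 lay above 0 at day 1 and 9 at days 3 and 7, with list means of -0.11 and -0.01 at day 1, 0.29 and 0.16 at day 3, and 0.42 and 0.19 at day 7. Mbp, a myelin protein gene, had -0.17 ± 0.13, 0.43 ± 0.26 and 0.44 ± 0.54, and Mog, another, 0.00 ± 0.13, 0.29 ± 0.062 and 0.39 ± 0.015. Tf lay near -0.36 on days 1 and 7 and near 0 on day 3. Choroid plexus and ependyma markers, 10 genes, had list means of 0.03 and 0.22 at day 1, 0.23 and 0.69 at day 3, and -0.33 and -0.40 at day 7. Ttr, the transport protein of the choroid plexus, ran from -0.02 to 1.86 at day 1, from 0.73 to 2.18 at day 3 and from -2.55 to -1.79 at day 7, and Kl was between -0.17 and 0.17 on every day. Of the 10, 7 lay above 0 at day 1, where Tf had -0.36, 10 at day 3, where Tf was near 0, and 2 at day 7, where Tf again had -0.36. The part of these cells in the Tf ratio was not tested.

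Microglia and macrophage markers, 10 genes, all lay above 0 at days 1 and 3 and 1 of 10 at day 7. Their list means were 0.18 and 0.27 at day 1, 0.31 and 0.23 at day 3, and -0.14 and -0.21 at day 7. Cx3cr1 had 0.21 ± 0.065, 0.22 ± 0.10 and -0.11 ± 0.056, and Csf1r 0.05 ± 0.068, 0.07 ± 0.021 and -0.05 ± 0.20. Hmox1 and the ferritin genes are also known in these cells. At day 1 Fth1 had 0.27, Ftl1 0.14 and Hmox1 -0.65, and at day 3 all 3 of these genes were below 0. The part of microglia and macrophages in their ratios was not tested. Astrocyte markers, 10 genes, had list means of -0.02 and 0.18, 0.31 and 0.19, and 0.05 and -0.20, with Aqp4, the water channel of astrocytes, rising by 0.34 ± 0.10 at day 3 (adjusted p = 0.0468 in limma) and Gfap at -0.01 ± 0.095. The other astrocyte marker that passed at day 3 was Glul, named after its values were seen, at 0.75. With each day fitted alone, or with a trend and robust prior, 0% of all genes passed at day 3, so neither call was kept. Astrocytes are a known source of Cp, whose ratio was also above 0 at day 3, and their part in it was not tested.

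Blood markers, 6 genes, had list means of 0.19 and 0.25 at day 1 and between -0.01 and 0.03 later. That day 1 value came mainly from Hbb-b1, a globin gene, which rose by 1.06 ± 0.39 (adjusted p = 0.0399 in limma), while Hbb had 0.00 ± 0.030. With a trend and robust prior 0% of all genes passed at day 1, so the Hbb-b1 call was not kept. The part of blood in the day 1 ratio of Fth1 was not tested. Endothelial list means lay between -0.06 and 0.06 and neuron list means between -0.15 and 0.14 over the 6 replicates.

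The genes with the pattern most like that of Hmox1 and Tf over the 6 replicate values were found by Pearson's r, as a description in which all values share the same arrays. Among 1096 genes whose day means ranged over at least 0.5 of the range of Hmox1, the 5 closest to Hmox1 were Hsp90b1 (r = 0.993), Gnl2 (r = 0.988), Golga3 (r = 0.979), Cnbp (r = 0.976) and Ciz1 (r = 0.975). Hsp90b1, an endoplasmic reticulum chaperone gene, had day means of -0.37, -0.65 and 0.54. It differs from Hmox1 in lying above 0 at day 7. Among 4070 genes compared with Tf by the same limit, the closest were Itih3 (r = 0.982), Ndufa12 (r = 0.978), Fstl1 (r = 0.977), Gjb6 (r = 0.976) and Dnai7 (r = 0.976). Their values rise and fall with Tf at a different height: Itih3, which encodes a secreted matrix protein, had day means of -0.07, 0.50 and -0.06. In each case r describes the shape of 6 values, and 17 genes for Hmox1 and 24 for Tf had an r above 0.95.

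Across the whole table the dye-swapped arrays of a replicate had r from -0.08 to 0.47 over the genes, which are not independent replicates, and the averaged replicates of a day had r of 0.48, 0.40 and 0.29. Arrays of the same dye orientation from different replicates, of the same or different days, had r from -0.12 to 0.58. Since the lowest of these lie near 0, they cannot tell whether the sign of an array was turned. The medians of the columns lay between -0.02 and 0.03.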

How the data were processed

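RNA was labelled with Cy5 and Cy3 and hybridized to 12 Agilent whole-genome rat arrays, 2 dye-swapped arrays for each of 2 biological replicates a day. The deposited values are log2 ratios between the channels, for 44290 spots. They were made with limma, version not given, per the submitters' processing notes. How background and arrays were normalized is not stated, nor is the log base, taken as 2 from limma's convention. The table holds no intensities, so dim spots were not filtered, and the number of arrays limits the precision. A single symbol is listed for 23535 spots, several for 48 and none for 20707. Spots with exactly 1 symbol were averaged into 14871 genes, and dye-swapped arrays were averaged. Each gene's 6 values entered a limma fit (version 3.58.1, R 4.3.3) with a coefficient for each day. It had 3 residual and 2.72 prior degrees of freedom and was two-sided, Benjamini-Hochberg over all genes. A check on simulated independent values asked only that most changes of a size above every member's day mean were found. It set no limit for smaller changes or for false calls. Figures used Python 3.11.15 and matplotlib 3.10.9. The members and all gene lists were chosen with earlier results of these data known. From the lists, genes past the threshold and the 2 with the smallest F test p of each list are named. From the marker lists with values near the iron genes, the first 2 measured genes are described. Of 87 listed symbols, 75 had a value. The deviations of same-numbered replicates from their day means had r of 0.26 between days 1 and 3, -0.07 between days 1 and 7 and 0.01 between days 3 and 7, so not every pair deviated together and the numbers were not taken as pairing the samples.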

Additional observations from a re-analysis of the deposited data

How the results depend on the processing

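The 2 replicates a day and the lack of intensities limit what small ratios can show. The sign of a member's value was the same as reported in 164 of 170 alternative values at day 1, 165 of 170 at day 3 and 152 of 170 at day 7, and in 156, 148 and 158 of 160 for the differences from day 1 to day 3, day 1 to day 7 and day 3 to day 7. Hmox1 from day 1 to day 3 turned from -0.18 to 0.06 with Cy5 arrays only and to 0.02 without day 3 replicate 1, and Tf at day 3 was 0.14 with Cy5 arrays only. The causes were not tested.

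The count of members past the threshold, 0 in every comparison as reported, moved as follows, with the share of all genes called in the same fit in brackets. With axotomized RNA in Cy5 only, it was 2 at day 1 (Tf, Hmox1) [4.4%] and 2 at day 3 (Ftl1, Hmox1) [2%], and the count of other iron and heme genes, 1 as reported at day 1, was 4. With Cy3 only it was 1 at day 1 (Tf) [0.377%], and the other iron and heme genes numbered 1 at day 3 [0.841%]. With the random block of 12 arrays the members numbered 5, 3 and 1 on the 3 days [4.84%, 7.15% and 1.94%]. They numbered 2, 1 and 2 in the differences [2.62%, 5.84% and 6.17%], and the other genes 3 at day 1, 7 at day 3 and 1, 2 and 2 in the differences. With a dye term added the members numbered 4, 2 and 1 [3.99%, 6.44% and 1.3%], then 3 from day 1 to day 3 [1.95%] and 1 from day 3 to day 7 [5.59%], and the other genes again 3 and 7, then 1, 2 and 2. With each array centred on its median 1 member passed at day 1 (Tf) [0.558%] and 1 at day 3 (Hmox1) [1.09%]. Quantile normalization gave 1 member (Tf) at day 1 [0.753%], at day 7 [0.101%], from day 1 to day 3 [0.612%] and from day 3 to day 7 [0.444%]. With it Tf had -1.38 at days 1 and 7. Hmox1 had -1.0 at day 1 (adjusted p = 0.429) and -1.73 at day 3 (adjusted p = 0.191), and 1.60 from day 3 to day 7 in place of 0.74. In the deposited values, spots below -1 made up 1.82% with axotomized RNA in Cy5 and 0.0534% in Cy3. Spots above 1 made up 0.0628% in Cy5 and 1.71% in Cy3. The part of these tails in the moved values was not tested. Quantile normalization over spots with 1 symbol, chosen after seeing the data, gave 1 member at day 1 (Tf, -0.38) [0.471%]. The other iron genes at day 1 numbered 0 with quantile normalization, a trend and robust prior, each day alone, and the replicate block. Leaving out 1 replicate gave 0 to 1 of them. With the replicate block Lcn2 had an adjusted p of 0.0512. With a trend and robust prior 0% of all genes passed on each of the 3 days.

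For the 25 spots, the brackets give the share of all spots called at days 1, 3 and 7. The counts were 2, 5 and 0 with Cy5 only [4.11%, 3.49% and 1.82%] and 2, 1 and 1 with Cy3 only [3.17%, 2.76% and 2.58%]. They were 7, 6 and 1 with the random block [2.93%, 5.2% and 1.53%], 6, 5 and 1 with the dye term [2.25%, 4.53% and 0.908%], and 1, 0 and 1 with quantile normalization [0.35%, 0.3% and 0.0384%]. Of all spots, 733 had a part that turned with the dyes above 1 in size, and 731 of these have no gene. The 731 had medians of -4.26 with axotomized RNA in Cy5 and 3.81 in Cy3. Such spots can be called in a fit of 1 dye orientation, and their part in the shares for Cy5 only and Cy3 only was not tested.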
